A study of Mus musculus with 6 samples.

Results

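First-intron peaks are the points of hnRNP UL1 binding that the authors' annotation places in intron 1 of a transcript and for which the row names a gene. They make up 2007 of the 18624 peaks in the tables of the 3 ChIP libraries (10.8%): 675 of 8425 at 0 h, 1185 of 9046 at 4 h and 147 of 1153 at 10 h. The cells were RAW 264.7, an established mouse macrophage line, left untreated (0 h) or given lipopolysaccharide (LPS, the bacterial cell wall component sensed by TLR4) at 100 ng/ml for 4 h or 10 h. No genetic change or other agent is named for any group. Each group held 1 ChIP library, made with a Proteintech antibody against hnRNP UL1, and 1 input library, which was not analysed here. With 1 library per group there is no replicate check and no test, and the intervals given below are 95% intervals for counting error only.

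An intron is the stretch of a gene that is transcribed and then spliced out, and the first intron, which starts behind the first exon, is usually the longest of a gene. It often carries enhancers and alternative start sites, and it is where a polymerase that has left the promoter passes early in elongation. hnRNP UL1 is an RNA-binding protein of the hnRNP U family with a SAP domain, a fold that can contact DNA, and it is known from RNA processing and the DNA damage response.

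The class has a built-in edge. The authors' annotation gives any peak within 3 kb of a transcript start to the promoter, so the part of each first intron that adjoins the start is missing from the class. The farthest promoter peak lay 2999 bp from a start, and the nearest first-intron peak lay 3002 bp from one, at Lck in the 4 h library. The nearest of the other libraries were peaks of Mdh2 at 3021 bp (0 h) and Cuedc1 at 3031 bp (10 h). Short first introns can therefore hold no member at all. Between the 3 times, peaks were compared for nearest genes whose Ensembl number lies below the last one of the 10 h table ("common IDs"), and between 0 h and 4 h also up to the last one of the 4 h table ("longer range"). In the common IDs the class had 165, 675 and 147 members at the 3 times.

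Start regions are shown for 5 genes that recur below, so that the letters at their starts can be read beside the peaks, as RefSeq promoter windows of GRCm38.p6 from 250 bases before to 50 after a start, 5′ to 3′ on the gene's strand. Capitals mark matches to 4 short patterns searched on both strands: GAGGAA (known from PU.1), TGANTCA (AP-1), GGGANNTCC (NF-kB) and GAAANNGAA (the interferon-stimulated response element). The windows lie at chr11:68431875-68432174 on the plus strand (Pik3r5), chr10:60277378-60277677 plus (Psap), chr13:20793863-20794162 plus (Aoah), chr19:29367188-29367487 plus (Cd274) and chr11:54962891-54963190 minus (Tnip1). The Cd274 window belongs to a start inside the RefSeq gene, whose 5′ end is at 29362107.
Pik3r5: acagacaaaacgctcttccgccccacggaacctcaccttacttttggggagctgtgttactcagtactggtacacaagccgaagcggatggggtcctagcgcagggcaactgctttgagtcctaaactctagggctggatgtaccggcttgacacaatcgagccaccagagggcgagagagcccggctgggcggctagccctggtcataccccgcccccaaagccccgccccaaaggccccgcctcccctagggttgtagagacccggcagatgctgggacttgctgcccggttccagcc
Psap: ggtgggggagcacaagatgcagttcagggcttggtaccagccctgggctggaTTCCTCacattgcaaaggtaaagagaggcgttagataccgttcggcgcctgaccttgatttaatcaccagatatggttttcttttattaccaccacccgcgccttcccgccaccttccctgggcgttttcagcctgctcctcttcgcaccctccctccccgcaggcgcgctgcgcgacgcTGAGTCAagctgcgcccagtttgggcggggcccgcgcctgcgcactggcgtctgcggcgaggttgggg
Aoah: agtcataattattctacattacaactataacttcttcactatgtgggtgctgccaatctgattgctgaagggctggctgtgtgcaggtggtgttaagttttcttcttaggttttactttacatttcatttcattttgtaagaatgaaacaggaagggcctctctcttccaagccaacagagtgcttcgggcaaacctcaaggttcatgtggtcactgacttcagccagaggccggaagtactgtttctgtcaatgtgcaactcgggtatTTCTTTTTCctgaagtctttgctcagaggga
Cd274: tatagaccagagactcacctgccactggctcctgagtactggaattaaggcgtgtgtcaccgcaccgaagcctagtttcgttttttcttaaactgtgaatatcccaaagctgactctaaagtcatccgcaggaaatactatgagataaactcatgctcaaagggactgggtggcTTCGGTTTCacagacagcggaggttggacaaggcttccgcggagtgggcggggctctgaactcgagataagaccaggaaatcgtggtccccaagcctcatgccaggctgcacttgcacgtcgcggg
Tnip1: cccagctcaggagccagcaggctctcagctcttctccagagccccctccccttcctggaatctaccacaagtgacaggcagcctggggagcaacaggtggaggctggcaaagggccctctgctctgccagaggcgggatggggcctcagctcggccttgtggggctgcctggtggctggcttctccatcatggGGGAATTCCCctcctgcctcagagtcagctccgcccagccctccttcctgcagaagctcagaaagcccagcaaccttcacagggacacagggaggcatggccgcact
Pik3r5 held no match to the 4 patterns. Psap held 1 PU.1 and 1 AP-1 match, Aoah and Cd274 1 interferon-type match each, and Tnip1 the NF-kB pattern on both strands at overlapping positions.

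Over the promoters of all genes with a first-intron peak, the patterns were close to their shares elsewhere, with a departure in the NF-kB letters at 10 h. A window was found for 732 of the 962 genes with a first-intron peak in any table. In the common IDs GAGGAA was present in 25.3% of 83 windows at 0 h, 26.7% of 258 at 4 h and 23.1% of 78 at 10 h, against 27.5% of the windows of 17492 protein-coding genes. TGANTCA was in 3.61%, 7.36% and 3.85%, against 7.03%, and GAAANNGAA in 4.82%, 8.91% and 7.69%, against 8.24%. GGGANNTCC was in 8.43%, 6.98% and 15.4%, against 4.59%. The 10 h value came from 12 of 78 genes (interval 8.21 to 25.3%), and the share among genes with a 10 h peak of any class was 7.72%. The 12 genes were Actn1, Actr2, Ankrd33b, Eif2ak4, Gnai3, Mbnl2, Nfe2l2, Nr2c2, Snd1, Tex14, Tnip1 and Vav2. They were named after the share was seen, as the highest against its background among 12 shares. The windows also differed in base content, with a median GC of 65.5% at the 10 h genes, 62.7% at genes with any 10 h peak and 56.3% over all protein-coding genes, and the part of base content in the pattern's share was not tested. A match is a run of letters and not a shown site.

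Few first-intron peaks lay in or near a RefSeq promoter window, which the 3 kb edge of the class largely sets in advance. The counts that follow are therefore not a result about binding. Over the whole tables, 1 of 675 peaks at 0 h, 0 of 1185 at 4 h and 0 of 147 at 10 h fell inside a RefSeq promoter window, and 4, 7 and 0 lay within 1000 bp of one. The single case was a 0 h peak at chr15 position 10708895 in the first intron of Rai14, which encodes an actin-associated ankyrin-repeat protein. It lay at base 83 of the window of Gm52214, a RefSeq gene on the other strand, at chr15:10708813-10709112 (plus), and the capitals mark that base with 10 bases to each side.
Gm52214: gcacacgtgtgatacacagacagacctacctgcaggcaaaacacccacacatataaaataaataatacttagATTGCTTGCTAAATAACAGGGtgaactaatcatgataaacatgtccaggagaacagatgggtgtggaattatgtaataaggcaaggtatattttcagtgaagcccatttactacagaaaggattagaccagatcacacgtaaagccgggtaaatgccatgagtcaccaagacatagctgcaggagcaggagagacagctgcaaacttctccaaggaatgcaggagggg

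In the common IDs, first-intron peaks kept a nearly constant share of all peaks while their number changed about as much as the tables as a whole. They made up 12.6% of the peaks before LPS (10.8 to 14.5%), 12.7% after 4 h (11.9 to 13.7%) and 12.8% after 10 h (10.9 to 14.8%). Peaks in later introns took 19.7%, 28.0% and 29.3%, and peaks within 1 kb of a start took 34.5%, 20.1% and 20.8%. Between 0 h and the later times the promoter share was lower and the later-intron share higher, each beyond counting error, while the first-intron shares lay within each other's intervals.

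**Figure D1:**
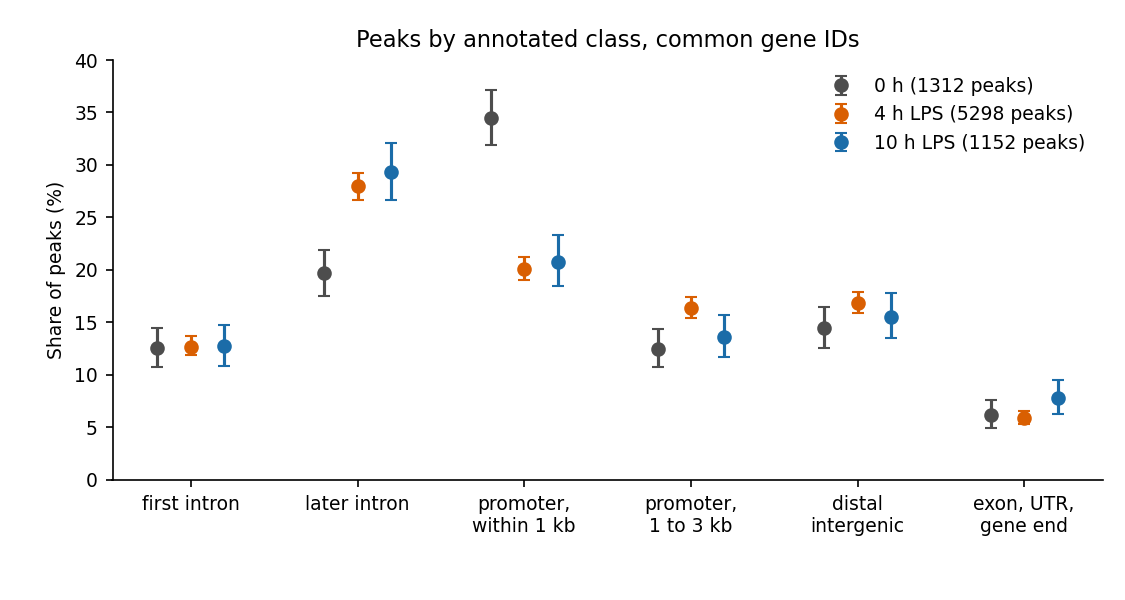
Share of peaks (%) in each annotated class at 0 h, 4 h and 10 h over the common gene IDs; points are shares of 1 library each and bars are exact 95% binomial intervals for counting error. First-intron peaks stay at 12.6%, 12.7% and 12.8%, while peaks within 1 kb of a start go from 34.5% at 0 h to 20.1% at 4 h.

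The 675 first-intron peaks of 4 h were 4.09 times the 165 of 0 h (3.45 to 4.88), beside 4.04 (3.8 to 4.29) for all peaks. The ratio was 5.74 (5.03 to 6.58) for later introns and 2.35 (2.1 to 2.63) for promoter peaks within 1 kb, and neither interval overlapped that of the first intron. At 10 h the number was 147, or 0.891 times that at 0 h (0.708 to 1.12) and 0.218 times that at 4 h (0.181 to 0.261). All peaks gave 0.878 and 0.217. For the 10 h to 0 h ratio later introns stood at 1.31 (1.11 to 1.55), an interval that just met that of the first intron, and promoter peaks at 0.531 (0.452 to 0.622). Read depth is not given in the tables, so a ratio of peak numbers holds the depth and quality of 2 libraries together with any change in binding, and these cannot be told apart.

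The lower ratio of the first intron against later introns was not found in the IDs that the longer range adds. There the 510 first-intron peaks of 4 h were 4.77 times the 107 of 0 h (3.86 to 5.93), and later introns stood at 4.56 (3.95 to 5.28). The share of first-intron peaks was also taken of these and all later-intron peaks together, the latter with or without a gene name. In the common IDs it was 39.0% (34.3 to 43.8%) in the 0 h library, 31.3% (29.4 to 33.3%) in the 4 h library and 30.3% (26.2 to 34.6%) in the 10 h library. In the added IDs the share was 31.7% before LPS (26.7 to 36.9%) and 32.6% after 4 h (30.3 to 35.0%). The promoter ratio was below the first-intron ratio in both sets, at 2.54 (2.21 to 2.91) in the added IDs.

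**Figure D2:**
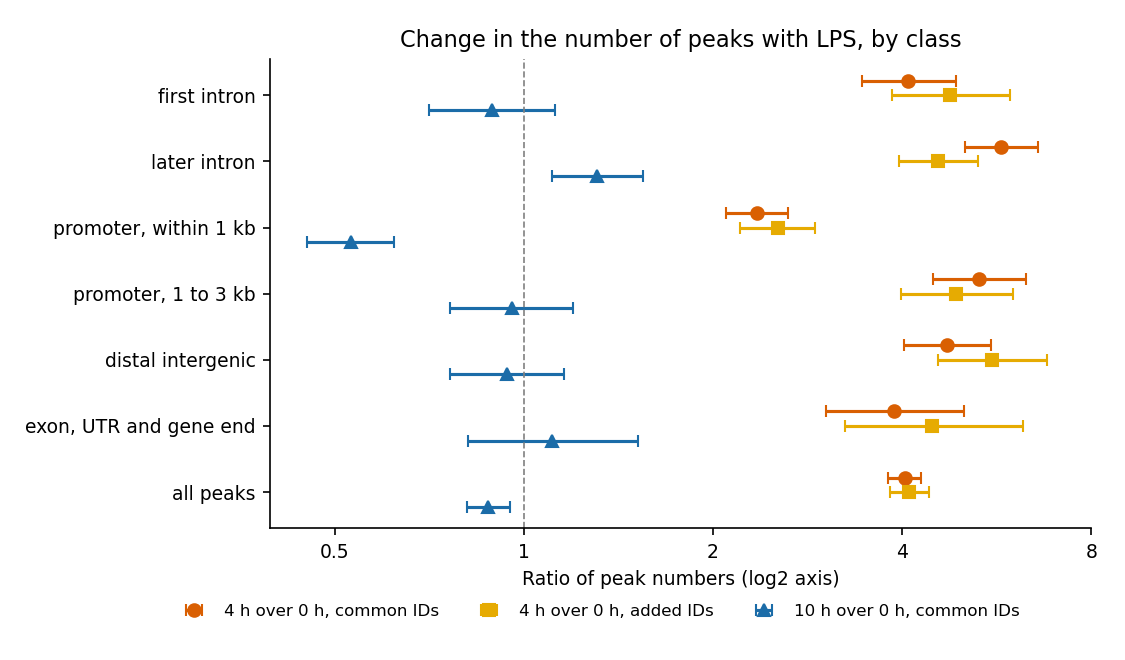
Ratio of peak numbers between times (log2 axis) for each class, for 4 h over 0 h in the common IDs and in the added IDs and for 10 h over 0 h in the common IDs; bars are 95% intervals for counting error and the dashed line is a ratio of 1. The 4 h over 0 h ratio of first-intron peaks is 4.09 in the common and 4.77 in the added IDs, above that of promoter peaks within 1 kb (2.35 and 2.54) in both.

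First-intron peaks lay a median of 9.08 kb from the nearest transcript start at 0 h (7.31 to 10.5 kb), 10.0 kb at 4 h (9.12 to 10.7 kb) and 8.81 kb at 10 h (7.15 to 10.4 kb). The quartiles were 5.67 and 15.9 kb, 5.83 and 17.9 kb, and 4.82 and 14.5 kb. The spread within a library was far wider than the differences between them. Peaks 3 to 5 kb from a start took 18.8% of the class at 0 h, 18.4% at 4 h and 26.5% at 10 h (19.6 to 34.4%), and the intervals overlapped. From 0 h to 4 h the number went from 31 to 124 at 3 to 5 kb (ratio 4.00), from 59 to 212 at 5 to 10 kb (3.59), from 50 to 203 at 10 to 20 kb (4.06) and from 22 to 122 at 20 to 50 kb (5.55, interval 3.50 to 9.17).

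**Figure D3:**
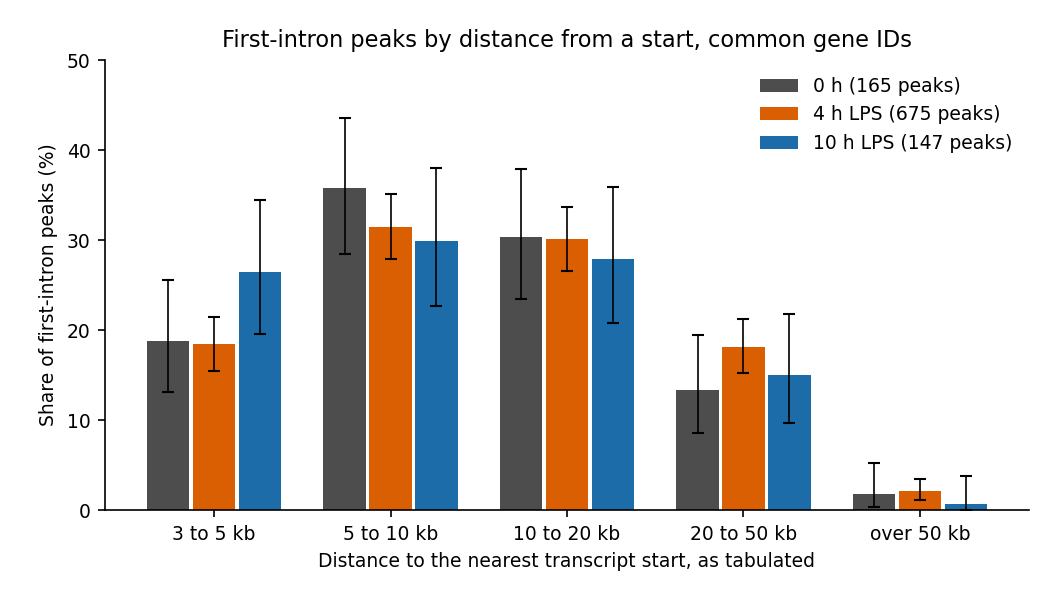
Share of first-intron peaks (%) by tabulated distance to the nearest transcript start at 0 h, 4 h and 10 h, common IDs; bars are 1 library each and error bars are exact 95% binomial intervals for counting error. The class begins at 3 kb because nearer peaks are annotated as promoter, and the 3 to 5 kb bin holds 18.8%, 18.4% and 26.5%.

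The tabulated distance runs to the nearest start of any transcript, which is often not the start of the intron's own transcript. That nearest start lay downstream of the peak for 33.3%, 28.7% and 27.2% of first-intron peaks at 0 h, 4 h and 10 h. The intron belonged to the named gene for 90.3%, 92.6% and 95.9% of peaks, but to the transcript used for the distance for 20%, 17.8% and 19.7%. Measured from the 5′ end of the RefSeq gene, the median distance was 16.0 kb at 0 h (148 peaks), 16.7 kb at 4 h (610) and 12.7 kb at 10 h (140), or 25.1%, 23.2% and 22% of the gene's length. In the common IDs the farthest peaks by the tables were at Gab2, which encodes a scaffold adaptor of receptor signalling: 111 kb at 0 h, 111 kb at 4 h and 113 kb at 10 h. The 0 h and 4 h points there were at chr7 positions 97192919 and 97192684, and the 10 h point was at 97194487. Over the whole tables the farthest were at 129 kb in Zfand3, a zinc finger gene, at 0 h and at 125 kb in Ldlrad4 at 4 h.

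Genes with a first-intron peak were long, as were genes with a later-intron peak. Their median RefSeq lengths in the common IDs were 71.8, 65.5 and 69.5 kb at 0 h, 4 h and 10 h. For later introns these were 63.5, 51.0 and 64.2 kb. The median length of genes with a first-intron peak at any time was 62.0 kb, beside 27.9 kb for genes with a peak of any class. Of the former 10.3% were under 20 kb long, beside 37.4%. The host transcript had a median of 9 introns at each time. A host with a single intron accounted for 6.06%, 7.56% and 6.12% of the peaks at 0 h, 4 h and 10 h.

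A first-intron peak was found at 109 genes at 0 h, 328 at 4 h and 97 at 10 h, and at 398 genes at any time. At all 3 times it was found at 30 of these 398 genes, beside 50 of 793 for later introns and 274 of 2097 for any class. The number of first-intron peaks was higher at 4 h than at 0 h for 302 of the 368 genes with one at either time (82.1%), and lower for 48 (13%). Over peaks of any class these shares were 80.3% and 11.6%. From 0 h to 10 h, 69 of 170 genes (40.6%) held more and 85 (50%) fewer, beside 39.0% and 49.4% over any class. From 4 h to 10 h, 41 of 364 genes (11.3%) held more and 309 (84.9%) fewer, beside 7.76% and 84.9%. The shares were near their backgrounds, apart from the 11.3% of genes with more at 10 h than at 4 h, whose counting interval (8.21 to 15%) lay above 7.76%. For later-intron peaks the same share was 72 of 743 genes (9.69%), which lay within that interval, so the first intron did not stand apart from later introns.

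Genes that had a first-intron peak at 4 h and none at 0 h mostly had no 0 h peak of another class either, as did 4 h genes in general. Of these 259 genes 91 (35.1%, 29.3 to 41.3%) had a 0 h peak of another class, and of all genes with a 4 h peak of any class 33.4% had a 0 h peak. In the other direction, 40 genes had a first-intron peak at 0 h and none at 4 h, and 30 of them (75%, 58.8 to 87.3%) had a 4 h peak of another class, in a table with many more peaks. Of the 0 h genes 63.3% had a first-intron peak at 4 h as well, beside 66.3% for later introns and 77.6% for any class. Of the 4 h genes 21% had one at 0 h, beside 17.1% and 33.4%. A promoter peak within 1 kb in the same library accompanied the first-intron peak at 32.1% of genes at 0 h, 39.0% at 4 h and 18.6% at 10 h, close to the 27.4%, 39.1% and 16.2% for genes with a later-intron peak.

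In the common IDs the most first-intron peaks at 4 h were at Pik3r5 and B4galt5. Pik3r5, the p101 regulatory subunit of phosphoinositide 3-kinase gamma (chr11:68432125-68497849), held 4, 18 and 5 first-intron peaks at 0 h, 4 h and 10 h. The 4 h peaks were spread from 3.39 to 38.1 kb behind the RefSeq 5′ end, those of 0 h from 6.76 to 35.6 kb and those of 10 h from 19.6 to 37.1 kb. The part nearer the 5′ end than 19.6 kb held no 10 h peak, and at 0 h only the peak at 6.76 kb. With 4 peaks at 0 h and 5 at 10 h, this difference was not tested. B4galt5, a galactosyltransferase of lactosylceramide synthesis (chr2:167298444-167349178), held 4, 16 and 3, and the 4 h peaks ran from 3.48 to 30.4 kb, a wider stretch than the 15.4 to 24.8 kb of the 0 h peaks.

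Asap1, an activator of Arf GTP hydrolysis, held 3, 15 and 1 peaks at 0 h, 4 h and 10 h, of which the 4 h peaks ran from 12.7 to 161 kb. Chn2, a chimaerin that acts on Rac, held 1, 12 and 4. Tmcc3, which encodes a membrane protein with coiled coils, held 1, 15 and 1, and Cpeb4, which binds the cytoplasmic polyadenylation element of mRNAs, held 4, 11 and 5. Tns3, a tensin of focal adhesions, held 3, 9 and 1, and Gab2 held 2, 8 and 4. At these genes 4 h had the most peaks, as it did in the tables as a whole.

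Over the longer range the most first-intron peaks were at Slco3a1, an organic anion transporter (chr7:74275418-74554780), with 0 at 0 h and 22 at 4 h, from 7.66 to 47.4 kb behind the RefSeq 5′ end. The gene held 74 peaks of any class at 4 h and 0 at 0 h. Alcam, an adhesion molecule, held 9 at 0 h and 18 at 4 h, and Litaf, an endosomal protein named for its induction by LPS, held 6 and 14. Ptprj, a receptor tyrosine phosphatase, held 1 and 12, and Gsk3b, a serine/threonine kinase, held 1 and 9. Slco3a1 differed from the other 4 in having no 0 h peak of any class.

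A smaller group had fewer first-intron peaks at 4 h, against the trend of the tables. Myo1f, a class I myosin of leukocytes, held 7 at 0 h and 1 at 4 h, with the 0 h peaks from 8.70 to 18.3 kb and the 4 h peak at 7.17 kb. Coro1c, a coronin that binds actin, held 3, 0 and 0 at 0 h, 4 h and 10 h, and Mtss1, a membrane-bending actin regulator, 4, 2 and 1. Zmiz1, a transcriptional coregulator, held 3, 0 and 0 in the first intron but 12, 15 and 3 peaks of any class. Pdpk1, the kinase PDK1, held 3 at 0 h and 0 at 4 h.

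**Figure D4:**
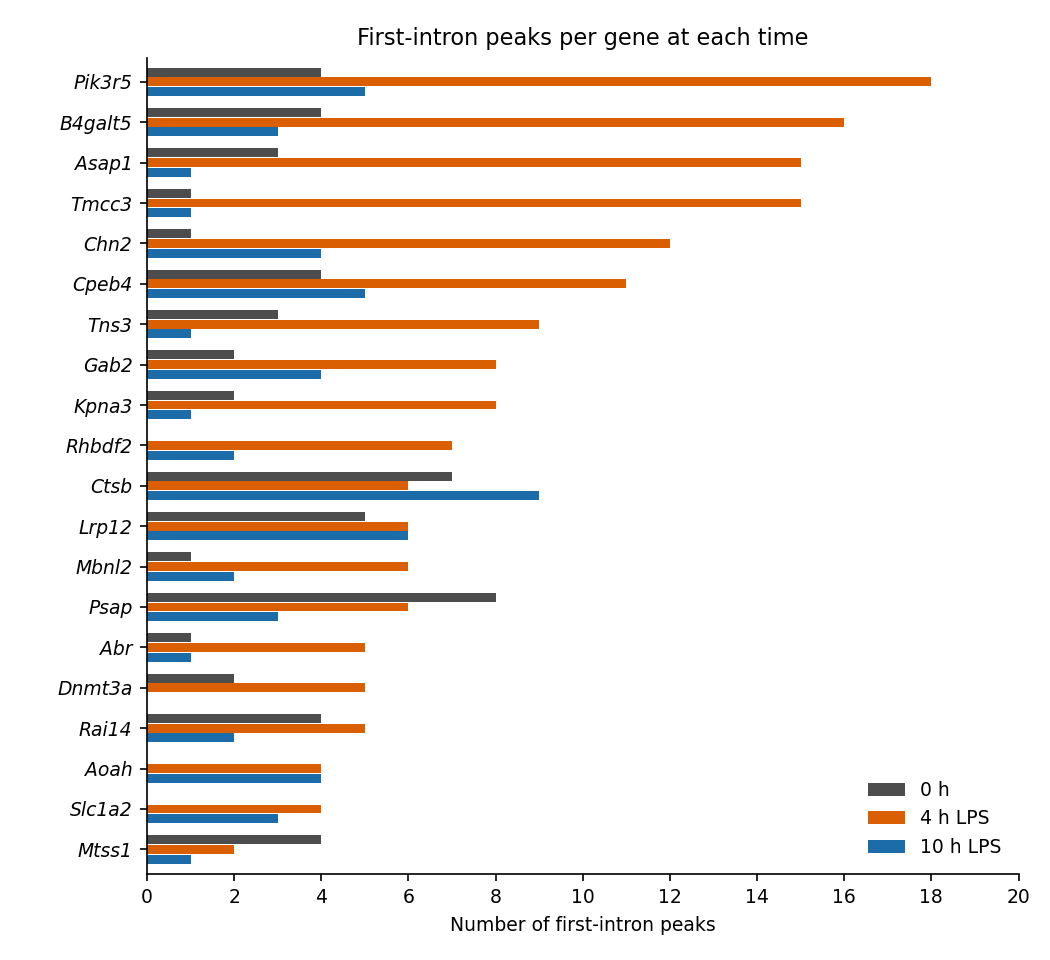
Number of first-intron peaks (horizontal axis) at 0 h, 4 h and 10 h for the 20 genes named by the gene rule in the common IDs that had at least 6 in all; each bar is a count from 1 library. Pik3r5 has 4, 18 and 5, while Ctsb has 7, 6 and 9 and Psap 8, 6 and 3.

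Among the 14 gene lists, the lysosome list had the most first-intron peaks at 0 h. Of the 11 members of the lysosome list named in the common IDs, 4 had a first-intron peak, beside 19% of all genes named there. Those 4 held 18, 17 and 12 such peaks at 0 h, 4 h and 10 h. These were 36.0%, 22.1% and 36.4% of the list's peaks of any class, beside 12.6%, 12.8% and 12.8% over all genes. Psap, the precursor of the saposins that help to break down sphingolipids (chr10:60277628-60302600), held 8, 6 and 3, and Ctsb, the protease cathepsin B (chr14:63122462-63145923), held 7, 6 and 9. Npc2, a cholesterol carrier of the lysosome, held 1, 4 and 0, and Atp6v0d1, a subunit of the proton pump, held 2, 1 and 0. Psap and Ctsb thus carried 15 of the 18 peaks at 0 h, and the list's count rests on them.

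Psap and Ctsb also held most of the first-intron points that recurred at all 3 times. A point within 500 bp of a point of both other times was found for 8 of the 147 peaks at 10 h, in 3 genes: 5 in Ctsb, 2 in Psap and 1 in Cpeb4. No share over any class is given for this count. Between pairs of times, other genes held 19 of the 30 points of 0 h met at 4 h and 10 of the 22 met at 10 h. They held 30 of the 40 points of 10 h met at 4 h and 10 of the 19 met at 0 h. In Psap the points of 0 h, 4 h and 10 h were at chr10 positions 60289598, 60289521 and 60289516, and at 60287965, 60287849 and 60287885. A further point at 60280922 (0 h) and 60280923 (4 h) had no counterpart at 10 h. In Ctsb the closest set was at chr14 positions 63128601, 63128603 and 63128645. The peaks of Ctsb lay within 3.42 to 10.0 kb of the RefSeq 5′ end at all times, and several share a neighbourhood, so the 5 are not independent.

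Away from these genes most first-intron points of 1 time had no counterpart at another. Of the first-intron peaks at 0 h, 30 of 165 (18.2%, 12.6 to 24.9%) had a 4 h peak within 500 bp, beside 19.1% of 0 h peaks of any class, and 22 (13.3%) had a 10 h peak, beside 7.39%. Of those at 4 h, 29 of 675 (4.30%) had a 0 h peak, beside 4.85%, and 39 (5.78%) a 10 h peak, beside 4.98%. Of those at 10 h, 40 of 147 (27.2%, 20.2 to 35.2%) had a 4 h peak, beside 20.3%, and 19 (12.9%, 7.96 to 19.4%) a 0 h peak, beside 7.99%. Without Ctsb and Psap, 10 of 135 peaks at 10 h (7.41%, 3.61 to 13.2%) had a 0 h peak, beside 6.50% over any class without these genes. In the other direction 10 of 150 (6.67%, 3.24 to 11.9%) did, beside 5.65%, and 19 of 150 (12.7%, 7.80 to 19.1%) had a 4 h peak, beside 17.3%. Of the 10 h peaks without these genes, 30 of 135 (22.2%, 15.5 to 30.2%) had a 4 h peak, beside 18.9%. Without Ctsb and Psap, each of these values over any class lay within the first-intron interval. With them, the interval of the 13.3% of 0 h peaks met at 10 h was 8.55 to 19.5%, above the 7.39% over any class.

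Lrp12, a receptor of the LDL receptor family, had a steady number of peaks, with 4 h points apart from those of 0 h. It held 5, 6 and 6 first-intron peaks, over 9.20 to 38.4 kb, 10.6 to 36.7 kb and 3.88 to 38.2 kb of the gene (chr15:39870589-39944015). By the same distance none of the 5 points of 0 h recurred at 4 h, and 1 of the 6 of 10 h was met by a 4 h point. Between 0 h and 10 h, 2 of the 5 recurred, at chr15 positions 39913444 and 39913168 and at 39905582 and 39905847. In Pik3r5, 2 of 4 peaks at 0 h and 3 of 5 at 10 h had a 4 h peak within 500 bp, where 18 peaks stood.

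**Figure D5:**
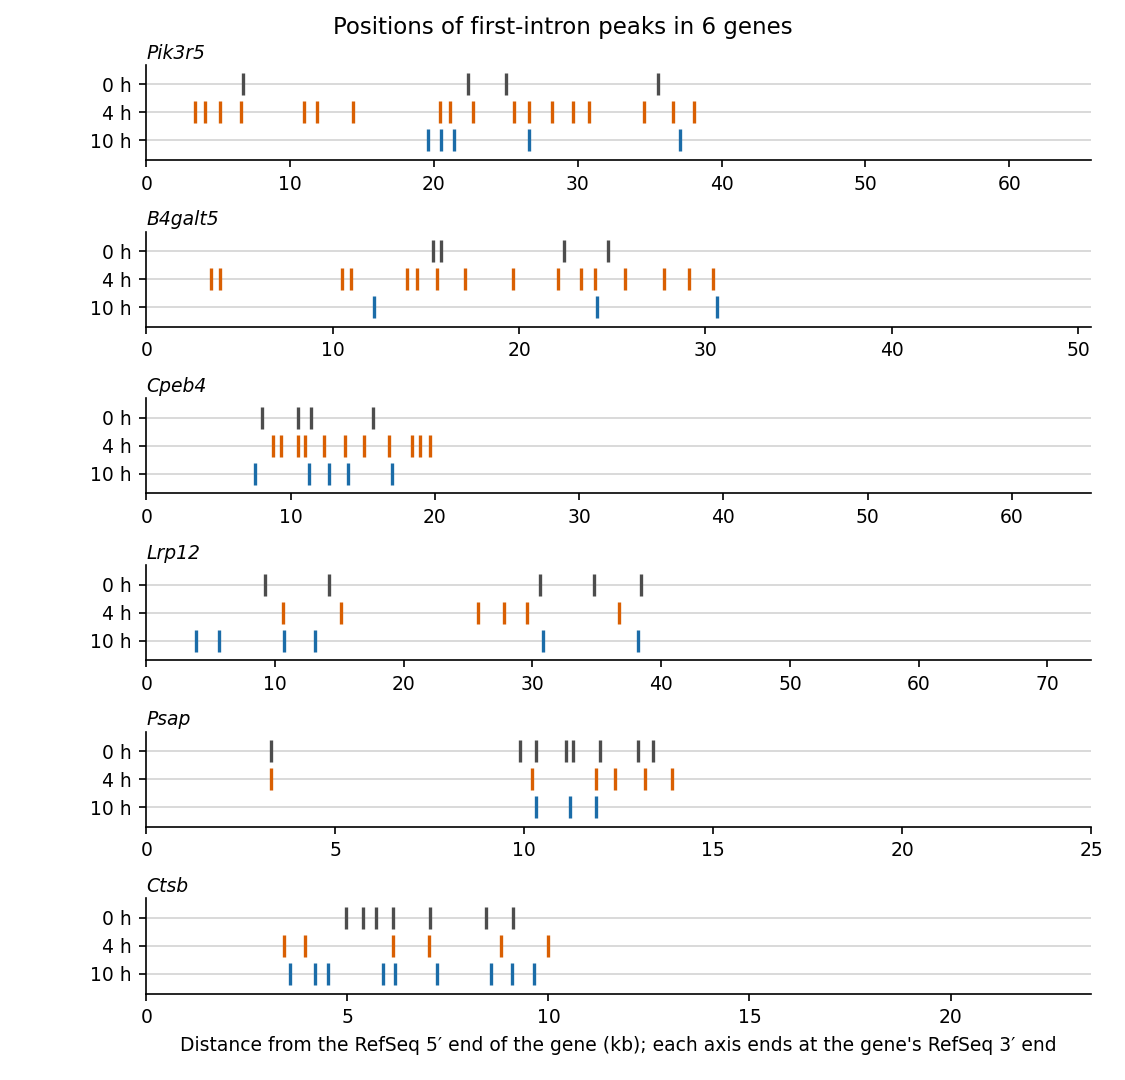
Positions of first-intron peaks at 0 h, 4 h and 10 h in 6 genes; the horizontal axis is the distance in kb from the RefSeq 5′ end, to the 3′ end of each gene, and each tick is 1 peak of 1 library. Peaks of Ctsb and Psap recur at close positions across times, and those of B4galt5 run from 3.48 to 30.4 kb at 4 h and from 15.4 to 24.8 kb at 0 h.

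A minority of first-intron peaks had a close neighbour of the class, more often than in later introns, and at 0 h and 10 h much of this came from Ctsb and Psap. Another first-intron peak lay within 1000 bp for 14.5% (9.55 to 20.9%), 16.3% and 14.3% of peaks at the successive times, beside 3.49%, 12.4% and 5.92% for later introns. Without Ctsb and Psap the values were 6.67% (3.24 to 11.9%), 15.4% and 7.41% (3.61 to 13.2%). The 0 h and 10 h intervals then held the later-intron values. The median gap between neighbours in the same intron was 4.21 kb at 0 h, 2.85 kb at 4 h and 2.20 kb at 10 h, and without Ctsb and Psap 5.64, 2.92 and 3.73 kb. In later introns it was 8.31, 4.94 and 4.81 kb.

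Genes of the LPS response were unevenly represented. None of the 16 early LPS-induced genes (cytokines, chemokines and immediate feedback regulators) named in the common IDs had a first-intron peak, beside 19% of all genes named there. They held 10, 83 and 17 peaks of any class at 0 h, 4 h and 10 h. A count of 0 of 83 allows a share of up to 3.61%, taking 3 counts as the limit of a count of 0, and the share over all genes at 4 h was 12.8%. The limit takes the 83 peaks as independent although they belong to at most 16 genes, so it is tighter than the number of genes allows. The 4 h peaks of these genes were 17 within 1 kb of a start, 20 at 1 to 3 kb, 25 distal, 12 in later introns and 9 in exons, UTRs or gene ends. Of these genes 14 of 16 were under 20 kb long, with a median of 10.5 kb, and the part of gene length in the count was not tested. Over the longer range 2 of 25 had one, beside 18.7% of all genes named there. They were Atf3, a stress-induced transcription factor, with 1 at 0 h and 3 at 4 h, and Ehd1, an endocytic recycling protein, with 0 and 1. The 0 h point of Atf3 at chr1 position 191179035 was met by a 4 h point at 191179060.

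Interferon-response genes gave the same count of 0. The 5 members named in the common IDs held 2, 49 and 4 peaks of any class. None had a first-intron peak, beside 19% of all genes named there. Over the longer range none of the 10 members had one, beside 18.7% of all genes, and 0 of their 103 peaks at 4 h were in a first intron. By the same limit of 3 counts this allows a share of up to 2.91%, again with peaks of few genes taken as independent. Of those 103, 37 were in later introns. In the common IDs all 5 genes were under 20 kb long, and over the longer range 6 of 10 were.

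Late LPS-induced genes had first-intron peaks after LPS in the common IDs, and the difference from the early genes was not tested. Of 11 members, 3 had such a peak, beside 19% of all genes. The list held 0, 7 and 7 such peaks in order of time, while its peaks of any class numbered 3, 98 and 35. The first-intron share was 7.14% at 4 h and 20% at 10 h, beside 12.8% over all genes at each of these times. Aoah, the acyloxyacyl hydrolase that removes fatty acyl chains from LPS, held 0, 4 and 4, of which the points at chr13 positions 20797238 (4 h) and 20797272 (10 h) and at 20798224 and 20798335 nearly coincided. Cd274, which encodes the checkpoint ligand PD-L1, held 0, 2 and 3, all between 8.60 and 10.2 kb of the RefSeq 5′ end, and each 10 h point had a 4 h peak of some class within 500 bp. Cybb, the NADPH oxidase subunit gp91phox, held 0, 1 and 0. Cd274 was thus 1 of the 41 genes with more first-intron peaks at 10 h than at 4 h, and Aoah 1 of the 14 with as many.

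Among components of TLR4 and NF-kB signalling, 7 of 10 members had a first-intron peak, beside 19% of all genes named in the common IDs. Their first-intron peaks numbered 0, 9 and 3, against 13, 57 and 11 peaks of any class. That was 15.8% at 4 h and 27.3% at 10 h, beside 12.8% over all genes at each of these times. The 3 peaks of 10 h were at 3 members other than those described next, which were named by their 4 h peaks. Peli1, an E3 ubiquitin ligase of the receptor complex, held 0, 4 and 0, from 26.4 to 40 kb behind its 5′ end. Traf3, an adaptor with ubiquitin ligase activity, held 0, 2 and 0, and Irak3, a kinase-like inhibitor of the pathway, 0, 1 and 0. The median length of these genes was 55.6 kb and none was under 20 kb. Rhbdf2, the iRhom2 protein that brings the TNF-releasing protease to the cell surface, was outside the list and held 0, 7 and 2.

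The macrophage identity list had 4 of 7 members with a first-intron peak, beside 19% of all genes. It held 8, 13 and 10 such peaks at 0 h, 4 h and 10 h. Ctsb belongs to this list too and supplied 7, 6 and 9 of them. Spi1, the gene of the macrophage transcription factor PU.1, held 0, 3 and 1, with points at chr2 positions 91086748 (4 h) and 91086831 (10 h). Mertk, a receptor for the uptake of dying cells, held 0, 2 and 0, and Cd36, a scavenger receptor, 1, 2 and 0. Without Ctsb the list had 1, 7 and 1. A peak shows a listed point of binding and not expression of the gene. Markers of other cell types were rarely named: of the T and B cell list 4 members were, of the neuronal list 1 and of the hepatocyte list 0. Lck, a T cell kinase, had 1 first-intron peak, at 4 h. Over the longer range Ms4a1, a B cell marker, was named for 2 peaks at 0 h and 2 at 4 h, all of which lay in introns of other genes' transcripts, and Fgf14 of the neuronal list had 1 at 4 h.

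Regulators of small GTPases had 10 of 14 members with a first-intron peak, beside 19% of all genes. The list held 6, 32 and 4 such peaks at 0 h, 4 h and 10 h. Asap1 supplied 15 of the 32. Abr and Bcr, both activators of Rac GTP hydrolysis, held 1, 5 and 1, and 0, 5 and 0, and Iqgap2, a scaffold of the actin cortex, 1, 2 and 0. The first-intron share of the list's peaks was 21.4%, 29.9% and 20%, above 12.6%, 12.8% and 12.8% over all genes, at genes with a median length of 186 kb. Over the longer range the order turned at 0 h, with 9.52% of 63 peaks against 12.3% over all genes. Chromatin and transcription coregulators had 13 of 29 members with a first-intron peak, beside 19% of all genes, with 10, 26 and 2 peaks. The first-intron share of that list was 20.4% at 0 h and 20.8% at 4 h, beside 12.6% and 12.8% over all genes. The median length of its genes was 86.9 kb. Dnmt3a, a DNA methyltransferase, held 2, 5 and 0, Hif1a, a hypoxia-regulated transcription factor, 1, 4 and 0, and Nipbl, the cohesin loader, 2, 3 and 0. At 10 h the list held 38 peaks of any class, of which 2 (5.26%) were in a first intron, beside 12.8% over all genes.

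The list of hnRNPs, splicing factors and other RNA-binding proteins had 5 of 17 members with a first-intron peak, beside 19% of all genes. It held 6, 20 and 7 such peaks. Cpeb4 supplied 4, 11 and 5 of them, Mbnl2, a splicing regulator, 1, 6 and 2, and Celf1, another splicing regulator, 1, 1 and 0. The first-intron share of the list's peaks was 19.4%, 20% and 20.6%, beside 12.6%, 12.8% and 12.8% over all genes. Cpeb4 also held 8, 33 and 19 of the list's 31, 100 and 34 peaks of any class. Without it the list had 9 first-intron peaks at 4 h, so these shares rest largely on 1 gene. In the DNA damage response list 1 of 4 members had a first-intron peak, beside the same 19%: Fancc of the Fanconi anaemia pathway, with 1 at 4 h. Of the housekeeping list 2 of 9 members had a first-intron peak, beside the same 19%. They were Polr2a, the large subunit of RNA polymerase II, with 2 at 4 h, and Ywhae, a 14-3-3 protein, with 2 at 4 h. Neither had one at another time.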

How the data were processed

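Chromatin of RAW 264.7 cells was precipitated with an antibody to hnRNP UL1, per the labels' protocols. The submitters' processing notes name CASAVA 1.8, BWA 0.7.12, MACS2 2.1.0 and the mouse build GRCm38 (mm10), without roles or settings. The authors deposited 1 peak table per ChIP library, and per the file headers each row gives a point 2 bp wide, an annotation, and the nearest gene and transcript start. No column gives a height, enrichment, q-value or depth, so the depth behind each table is unknown and peaks count as listed or not. The 4 h table ended in 1 incomplete row, dropped here. The 4 h and 10 h tables list genes only up to an Ensembl number, hence the common IDs.

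Members are rows whose annotation begins with an intron, contains "intron 1 of" and names a gene, and 302 such rows without a gene name were left out. Counts went to the named gene. Shares have exact Clopper-Pearson intervals. Intervals of a ratio of 2 counts were computed by conditioning on their total. Neighbouring peaks are not independent. RefSeq genes of GRCm38.p6 were matched by symbol or synonym and chromosome for 98.4%, 99.8% and 100% of members at 0 h, 4 h and 10 h.

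The members and the 14 gene lists were chosen with earlier results of these data known. Genes were named by these rules, counting first-intron peaks: the 10 with the most at each time in the common IDs, the 10 with the largest excess at 4 h and up to 10 with the largest excess at 0 h over the longer range, those with a position shared by all times, the 10 with the most in the whole 0 h table, up to 4 members per list, and the 3 nearest and farthest peaks per time. Counting steps were tested on simulated points. Alternatives were merging of close peaks, other distances, other gene ranges, and leaving out genes. Python 3.11.15, pandas 2.3.3 and scipy 1.17.1 were used.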

Additional observations from a re-analysis of the deposited data

How the results depend on the processing

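The ratios of first-intron peaks between times stayed within their counting intervals under every alternative run (longer range, added IDs, close peaks merged, Pik3r5 left out, peaks inside the named gene, hosts of the named gene only). In all, 42 of 62 alternative values of the main results stayed within their interval or 1.5 times their count, and 20 did not. As a share of intron peaks instead of all peaks, the class took 39.0%, 31.3% and 30.3% at 0 h, 4 h and 10 h, by the smaller denominator. With hosts of the named gene only the 4 h share of all peaks was 11.8%, by fewer members. The median distance was 16.0, 16.7 and 12.7 kb from the RefSeq 5′ end, and 6.86 kb at 4 h with the nearest peak of each gene. Genes with at least 2 first-intron peaks numbered 27, 121 and 23, and over the longer range 182 genes at 0 h and 570 at 4 h had at least 1. Within 200 bp 9.70% and within 1000 bp 30.3% of 0 h members met a 4 h peak, and 14.3% and 37.4% of 10 h members did. Without Ctsb and Psap, 7.41% of 10 h members met a 0 h peak and 6.67% of 0 h members a 10 h peak, and within 200 bp 7.88% of 0 h members met a 10 h peak. The alternatives on hosts, RefSeq distance, added IDs, Ctsb and Psap were chosen after seeing the data. Peaks per length of first intron and sequence around peaks, also planned, were not run, since neither a genome nor intron coordinates were used here. No paired analysis was possible because each group has 1 library.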
